A study of Mus musculus with 2 samples.

Results

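Fndc3b encodes a membrane-anchored protein with fibronectin type III repeats, also known as Fad104 from its description as a factor of early fat cell differentiation. In primary rib chondrocytes of mice the gene carried one of the runs with the most Sox6 peaks in the genome. The peaks described here are those on chromosome 3 whose centres lie between 27300000 and 27625000 in the mouse build mm9. They numbered 120 of 79107 in the Sox6 list and 32 of 23865 in the Sox9 list. The locus was chosen by its density of Sox6 peaks, so that density is given as a description only and no test was made of it. Fndc3b spans about 27315000 to 27611000 on the minus strand, which places the gene start at the high coordinate. Distances below are counted from that approximate start into the gene, whose place is uncertain by about 1 kb, and no exon or intron is named because no mm9 annotation was used here.

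The cells were chondrocytes dissected from the ribs of wild-type, untreated ICR mice on postnatal day 1, with proliferative and prehypertrophic cartilage kept and mature hypertrophic cartilage left out. There were 2 samples, 1 chromatin immunoprecipitation with an antibody to Sox6 and 1 input DNA without antibody. The Sox9 list comes from earlier ChIP-seq of mouse rib chondrocytes that the authors called again in the same way, and the sources used here do not name the strain or age behind it. The number of animals is not given, and each factor has 1 list, so no value below has a replicate error. The files hold positions only. Depth is unknown, no signal at input can be stated, and the intervals given are 95% exact binomial intervals that cover counting error and treat peaks as independent. Neighbouring peaks of one gene share their source and are not independent, so the intervals may be too narrow. The Sox6 and Sox9 data were made separately, so factor, antibody, animals, depth and library cannot be told apart in any difference between the lists.

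SOX9 is the transcription factor required for cartilage formation, and it switches on the genes of cartilage matrix. SOX6, with its close relative SOX5, binds DNA through the same kind of HMG box but has no transactivation domain of its own, and it works beside SOX9 at cartilage enhancers. ChIP-seq maps where such factors sit on chromatin, and a peak is a place where the ChIP reads were called as enriched. Binding inside a gene does not show that this gene is the one regulated. In the gene order of RefSeq (GRCm38.p6, used for names only), the protein-coding neighbours are Ghsr, the ghrelin receptor, and Tnfsf10, the ligand TRAIL, beyond the gene end, and Tmem212 and Pld1, a phospholipase D, beyond the gene start. The non-coding genes Gm32738 and Mir3092 lie inside Fndc3b.

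The promoter of Fndc3b is shown because it is where transcription begins and because peaks of both lists came close to the gene start. RefSeq has 1 entry for it on build GRCm38.p6, at chr3:27710403-27710702 on the minus strand, running from 250 bases before the start to 50 after it. That build differs from mm9, so these coordinates cannot be set beside those of the peaks. Capitals mark each CG dinucleotide.

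Fndc3b promoter: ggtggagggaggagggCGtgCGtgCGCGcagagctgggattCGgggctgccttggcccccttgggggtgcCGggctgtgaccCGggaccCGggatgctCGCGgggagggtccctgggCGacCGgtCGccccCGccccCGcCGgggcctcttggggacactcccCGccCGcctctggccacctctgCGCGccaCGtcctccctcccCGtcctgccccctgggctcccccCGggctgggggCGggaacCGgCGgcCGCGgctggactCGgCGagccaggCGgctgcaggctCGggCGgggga

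The sequence is 79.7% G or C and holds 33 CG dinucleotides, against medians of 52.7% and 7 over the 32851 promoters of the same length. At least as many CG dinucleotides were found in 8.56% of these promoters. Neither ACAAAG nor ACAATG, which are forms of the core that HMG-box SOX factors are known to bind, occurs in it on either strand. The share of all promoters that hold ACAAAG is 18.7%, and 12.6% hold ACAATG. This says only that these letters are not in the window. The Sox9 peak nearest to the gene start ran from 27610148 to 27610444 in mm9, with its centre about 0.704 kb inside the approximate start, and no Sox6 peak overlapped it. That distance is smaller than the uncertainty of the start, so the peak may lie on either side of it. It stood late in its list, at place 22221. The nearest Sox6 peak, from 27609355 to 27609433, had its centre about 1.61 kb inside the start and stood early, at place 5833, with 714 bp between the edges of these peaks. So near the start each factor had a peak of its own and the peaks did not touch.

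All 120 Sox6 peaks and all 32 Sox9 peaks fell inside the approximate span of the gene, although the window reaches past it at both ends. For the Sox9 peak nearest to the start this rests on a span known only to about 1 kb. The farthest Sox6 centre lay 281 kb from the start. Beyond the window the peaks thinned out: a flank of 325 kb on the gene end side held 15 Sox6 and 6 Sox9 peaks, and one of the same length on the gene start side held 27 and 11. On the gene end side the last Sox6 peak before the window lay 89.9 kb outside it and the first one inside it 30.1 kb from the edge. On the other side these distances were 33.0 and 15.6 kb. The window held 36.9 Sox6 and 9.85 Sox9 peaks per 100 kb, where chromosome 3 as a whole had 2.97 and 0.890. Sox9, which the rule did not use, was therefore also dense here, but the locus was picked with its Sox9 peaks already known, and sites of both lists coincide across the genome and the density of one is not free of the other. For each 100 Sox6 peaks there were 26.7 Sox9 peaks at Fndc3b and 30.2 in the lists as wholes.

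**Figure D1:**
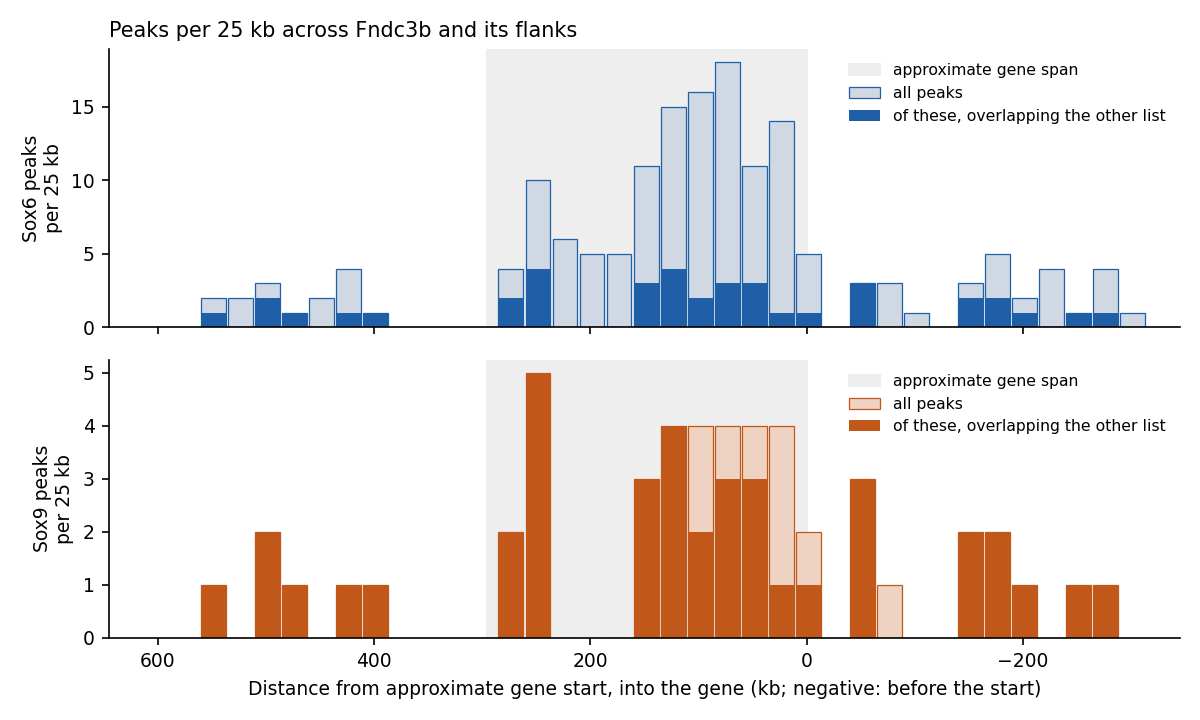
Number of Sox6 peaks (top) and Sox9 peaks (bottom) in each 25 kb along Fndc3b and flanks of 325 kb on either side, against the distance from the approximate gene start (negative values lie before the start). Pale bars are all peaks, dark bars those that overlap a peak of the other list, and grey shading is the approximate gene span. The tallest Sox6 bar has 18 peaks and stands 61 to 86 kb into the gene, while 3 bars in the middle of the gene have Sox6 peaks and no Sox9 peak.

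The peaks were not spread evenly along the gene. Counted in steps of 25 kb, Sox6 was highest 61 to 86 kb from the start with 18 peaks, and the neighbouring steps held 16 and 11. Towards the gene end it fell to 5 or 6 peaks in each of 3 successive steps between 161 and 236 kb, rose again to 10 in the next, and was 4 in the last step with any peak. Sox9 had 4 peaks in each of the 5 steps between 11 and 136 kb, 5 peaks in the step 236 to 261 kb, and 0 in the 3 steps between 161 and 236 kb. Sox6 centres lay a median of 1362 bp from the next one (95% interval of the median 1068 to 1654, n = 119 distances), against 7665 bp in the whole list. Of these distances 37.8% were under 1000 bp, and 19.2% in the whole list. The closest neighbours were 232 bp apart, about 65.1 kb from the start, and the next closest were 237 and 272 bp apart. The widest Sox6 gaps were 20068.5, 11289.5 and 10920.5 bp, all of them in the part of the gene without Sox9 peaks.

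Linking Sox6 peaks whose centres lay no more than 10000 bp apart gave 5 runs within Fndc3b. The longest ran from 27466979 to 27609433, over 142 kb in the part next to the gene start, with 87 Sox6 peaks, and 24 Sox9 peaks lay in it. Overlap with Sox9 was found for 17 of the 87, which is 19.5% (11.8 to 29.4). At the gene end a run of 48.7 kb from 27330054 to 27378721 had 17 Sox6 and 7 Sox9 peaks, with 6 Sox6 peaks shared, or 35.3% (14.2 to 61.7). The 3 short runs between these held 3, 7 and 6 Sox6 peaks and no Sox9 peak. Sox9 peaks thus lay on either side of a part of the gene without them. On the gene start side 25 were spread up to 141 kb from the start, and the other 7 lay 238 to 280 kb from it. Sox6 peaks continued, more thinly, through the part between.

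**Figure D2:**
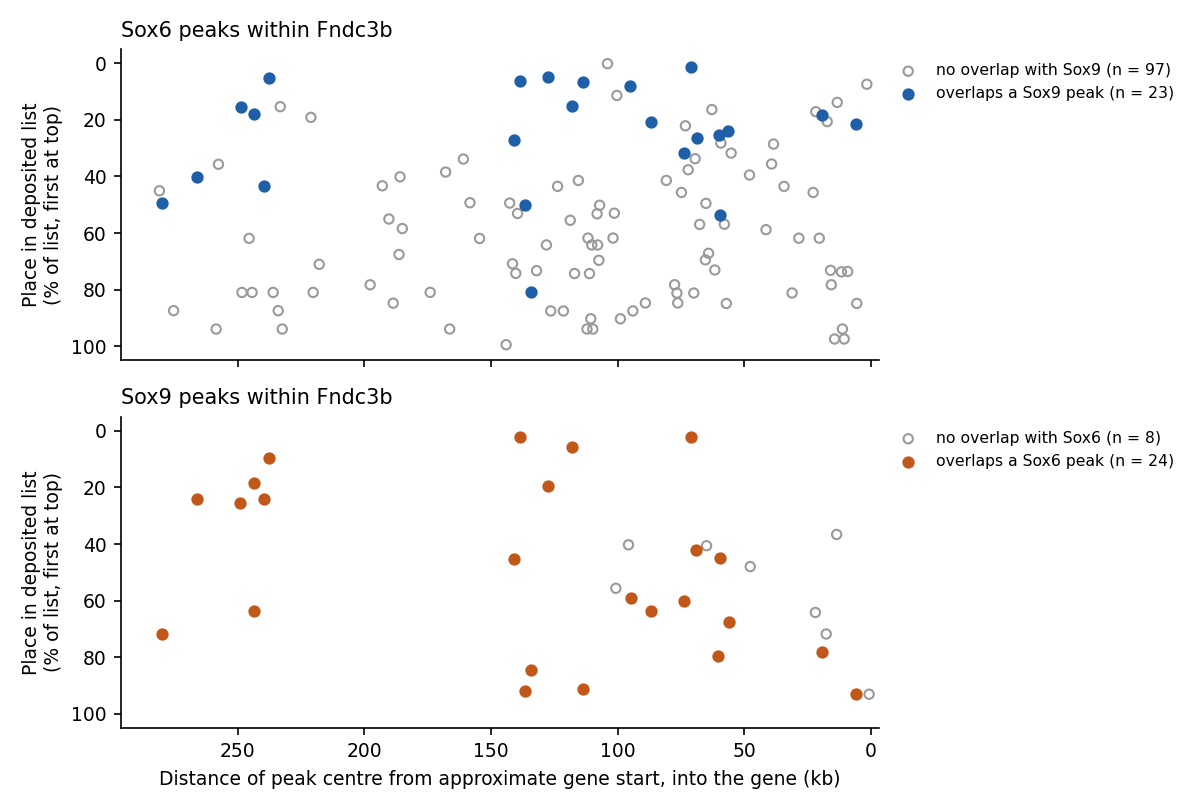
Each Sox6 peak (top, n = 120) and Sox9 peak (bottom, n = 32) of Fndc3b by the distance of its centre from the approximate gene start, in kb, and by its place in its deposited list in percent, the first entries at the top. Filled points overlap a peak of the other list and open points do not. Shared Sox6 peaks lie mostly in the upper part, open Sox6 points fill the lower part, and no Sox9 point lies between 141 and 238 kb.

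Overlap with a Sox9 peak by at least 1 bp was found for 23 of the 120, a Sox6 share of 19.2% (12.6 to 27.4), where 23.1% of all Sox6 peaks did so. Seen from the other list, 24 of 32 Sox9 peaks overlapped a Sox6 peak, or 75.0% (56.6 to 88.5), against 76.7% of all Sox9 peaks. Both shares were near those of the whole lists, and the whole-list values lay inside the intervals. The place of a peak in its list went with sharing here as it does across the lists, whose order is not documented but along which overlap falls. Shared Sox6 peaks stood at a median of 21.4% of the list (14.9 to 31.7), unshared ones at 64.2% (56.9 to 73.2), where the medians over the whole list were 19.4% and 58.6%. Among the 52 Sox6 peaks in the first 50% of the list 20 were shared, or 38.5% (25.3 to 53.0), against 38.1% of all Sox6 peaks there. Among the 68 in the last 50% there were 3, or 4.41% (0.919 to 12.4), against 8.03%. Had each Sox6 peak of the gene been shared at the rate of its 10% step of the whole list, 23.6 would have been shared, and 23 were. The same sum for Sox9 gave 24.4, and 24 were shared. The count of shared peaks at Fndc3b was thus close to what the list places of its peaks gave.

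**Figure D3:**
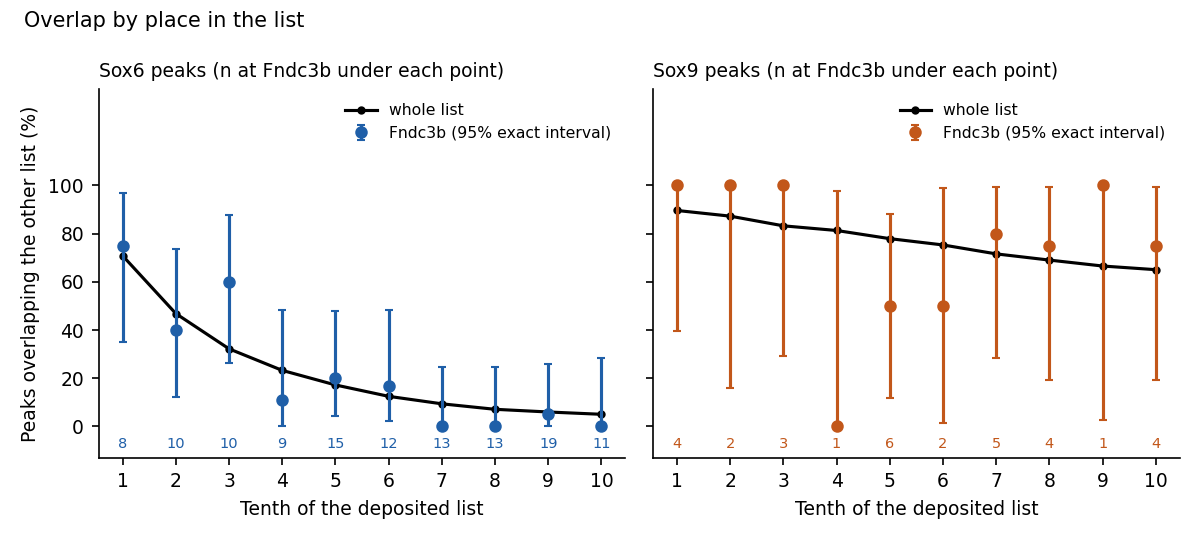
Percentage of Sox6 peaks (left) and Sox9 peaks (right) that overlap the other list, in 10 successive steps of the deposited list, for Fndc3b (points with 95% exact binomial intervals, number of peaks under each) and for the whole list (black line). The Sox6 points follow the fall of the line, from 75.0% of 8 peaks in the first step to 0 of 11 in the last, and the intervals in both panels include the line.

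Many peaks of the gene stood close to one another in the Sox6 list. Of the 120 Sox6 peaks 59 stood within 50 places of another peak of the same gene, 45 of them among the 68 in the last 50% of the list. Between places 64064 and 64091 alone there were 6 of them. Of the 32 Sox9 peaks 12 stood within 50 places of another in their list. How often this occurs over the whole lists was not measured, and small differences in place are not read as differences between peaks. The peaks of Fndc3b were not concentrated at the top of the list: their median place was at 56.2% (49.2 to 64.2), 1 of them was among the first 1000 Sox6 peaks, and 5 among the first 5000. For Sox9 2 were among the first 1000 and 6 among the first 5000, with a median at 51.8% (36.6 to 67.5).

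The site earliest in both lists together lay 71.2 kb from the gene start. Its Sox6 peak, from 27539762 to 27539871, had place 1006, and its Sox9 peak, from 27539708 to 27539870, had place 479, the earliest Sox9 place in the gene. Their centres were 27.5 bp apart. A second such site, 138 kb from the start, paired the Sox6 peak from 27472504 to 27472627 at place 4876 with the Sox9 peak from 27472443 to 27472636 at place 496. These 2 sites and a pair 238 kb from the start, with Sox6 place 4153 and Sox9 place 2271, were the only ones of the gene with both peaks in the first 10% of their lists. The pair 118 kb from the start had Sox9 place 1328, at 5.56% of its list, and Sox6 place 11813, at 14.9%. A wider difference the other way was found 114 kb from the start, where the Sox6 peak stood at place 5268, or 6.66%, and the Sox9 peak at 21808, or 91.4%.

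Because 1 Sox6 peak, from 27367409 to 27367679, met 2 Sox9 peaks, the 23 shared Sox6 peaks formed 24 pairs. The centres of a pair were a median of 43.8 bp apart (26.5 to 99.5), with 40.5 bp over all 18297 pairs of the lists, and 13 of the 24, or 54.2% (32.8 to 74.5), were within 50 bp, against 58.5% of all pairs. The closest pair, 134 kb from the start, had centres 1.5 bp apart although its peaks came late in both lists, at places 64091 and 20177. The pair nearest to the gene start, 6.06 kb inside it, had centres 5.5 bp apart, at places 16921 and 22176. The most distant pair was 230.5 bp apart, 137 kb from the start, and its Sox6 peak was 461 bp wide. In 19 of 24 pairs the Sox6 peak stood relatively earlier in its list than the Sox9 peak did in its own, which is 79.2% (57.9 to 92.9), and 75.3% of all pairs showed this. With 3.31 times as many entries in the Sox6 list, percentages of the lists do not compare the strength of binding.

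**Figure D4:**
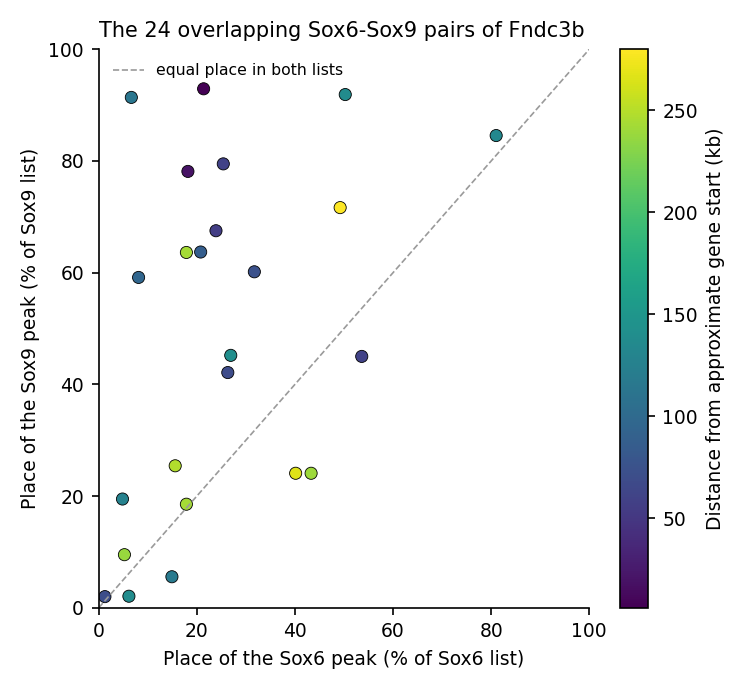
Place of the Sox9 peak against place of the Sox6 peak, each in percent of its own list, for the 24 overlapping pairs of Fndc3b; colour gives the distance from the approximate gene start in kb and the dashed line marks equal places. Of the pairs 19 lie above the line, and 21 have a Sox6 peak in the first 50% of its list, whereas 12 have a Sox9 peak there.

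At the gene end all 7 Sox9 peaks overlapped a Sox6 peak. They lay 238 to 280 kb from the start, and their Sox9 places ran from 2271 to 17099, with 4426, 5748, 5750, 6068 and 15182 between. The Sox6 peaks they met stood at places 4153, 12340, 14147, 31765, 34250 and 38939. On the gene start side 17 of 25 Sox9 peaks were shared, so that all 8 unshared Sox9 peaks of the gene were within 100.7 kb of the start. With 7 peaks on one side this difference in shares was not tested.

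Each of these 8 unshared Sox9 peaks had a Sox6 centre within 1000 bp, where 58.8% of unshared Sox9 peaks in the whole list did. The distances ran from 167 to 902 bp. The closest, from 27588986 to 27589198, missed a Sox6 peak at place 13523 by 3 bp. The peak from 27546059 to 27546185 had 96 bp between edges and the one from 27563295 to 27563435 had 136. A further peak, from 27597452 to 27597486, was only 35 bp wide, the narrowest Sox9 peak of the gene, with 150 bp to a Sox6 peak at place 10908, and the peak from 27593155 to 27593541 had 161 bp. The remaining 3, from 27510171 to 27510352, from 27515192 to 27515408 and at the gene start, had 251, 467 and 714 bp. Thus each Sox9 peak of Fndc3b touched a Sox6 peak or had a Sox6 centre within 1000 bp. The locus was chosen for its density of Sox6 peaks, with centres a median of 1362 bp apart here and 7665 bp in the whole list. Nearness of Sox9 peaks to Sox6 centres is thus not a result separate from that choice. The part that the density of Sox6 peaks plays in these distances was not tested.

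The 97 unshared Sox6 peaks were a median of 2163 bp (1650 to 3309) from the nearest Sox9 centre, against 15935 bp over the whole list, and 29 of them, or 29.9% (21.0 to 40.0), had 1 within 1000 bp, against 10.3%. For these distances too, the part of density was not tested. The farthest were in the Sox9-free part of the gene. There, between Sox9 centres 141 and 238 kb from the start, 23 Sox6 peaks lay in 96.7 kb, with the most remote 47736.5 bp from a Sox9 centre. That stretch was picked as the longest between neighbouring Sox9 centres in the window, so the whole-list median of 26.5 kb is not a like measure. Of 23844 such stretches in the whole list, 72 held at least as many Sox6 peaks. None of the 23 was shared, which follows almost wholly from picking a stretch without Sox9 centres. The median place of these 23 Sox6 peaks was at 67.6% of the list (49.3 to 81.0), 8 of 23 were in its first 50%, and the earliest had place 12122. All 97 unshared Sox6 peaks of the gene had a median at 64.2%, inside that interval. On the gene start side of this part the median place of the 84 Sox6 peaks was at 54.6% (43.5 to 64.2), and on the gene end side that of 13 peaks was at 45.1% (17.9 to 81.0). These intervals overlap, and a difference between them was not tested.

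The earliest Sox6 peak of the gene overlapped no Sox9 peak. It ran from 27506878 to 27507027, 104 kb from the start, and had place 76 of 79107, while the nearest Sox9 centre was 3309 bp away. Among the first 1% of Sox6 peaks 15.9% had no Sox9 overlap, 126 of 791, and 39 of these 126 were at least as far from Sox9. Among the first 100 Sox6 peaks 16 had no Sox9 overlap, a median of 250.5 bp from the nearest Sox9 centre. Of these 16, 3 were at least as far from Sox9, this peak counted. A Sox6 peak this early in the list without Sox9 overlap is thus uncommon but not rare, though few of the first 100 lay as far from Sox9. The peak lies in a stretch of 13.1 kb between Sox9 centres, 101 to 114 kb from the start, which holds 14 Sox6 centres, 13 of them unshared. Apart from place 76 these unshared peaks came late, with the next at place 39691, past the middle of the list. The median place of the 13 was at 64.2%, the same as for all 97 unshared Sox6 peaks of the gene. By that median they came no later than unshared Sox6 peaks of the gene in general. The share past the middle of the list was not compared. This stretch was singled out after its values were seen.

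In the same stretch 4 Sox6 peaks overlapped each other end to end, from 27502738 to 27504039, and together covered 1302 bp. They were 295, 477, 483 and 357 bp wide, at places 42086, 50799, 55088 and 39691, and their centres were 5729 to 6416 bp from a Sox9 centre. The widths of 483 and 477 bp were the largest among the Sox6 peaks of the gene, followed by 461 bp. These were the only overlapping Sox6 neighbours within Fndc3b, and no Sox9 peaks overlapped each other. Width otherwise set the gene apart little: its Sox6 peaks had a median of 150 bp (130 to 175), as against 151 bp in the whole list, and 5 of 120 were at least 400 bp wide, or 4.17%, where 3.05% of the list were. Shared and unshared Sox6 peaks had medians of 155 and 150 bp.

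Set beside the other long runs, the main Fndc3b run had rank 4 by number of Sox6 peaks among all runs made with the same link of 10000 bp. The 3 longer ones, on chromosome 10 with 106, on chromosome 3 from 113729632 to 113902839 with 103, and on chromosome 4 with 99 Sox6 peaks, had 26, 9 and 23 Sox9 peaks. Shared Sox6 peaks made up 20.8%, 6.80% and 18.2% of them, and 19.5% at Fndc3b. Over the 10 runs with the most Sox6 peaks the share ran from 6.80% to 27.4% with a median of 16.3%. At Fndc3b there were 27.6 Sox9 peaks per 100 Sox6 peaks within the run, below the 30.2 of the lists as wholes. Among the 10 runs this value was passed by the run on chromosome 7 alone, with 34.2. That standing rests on the link of 10000 bp. The next Sox6 centre towards the gene end lay 10564.5 bp away, in a run of 6 Sox6 peaks without a Sox9 peak. A link just longer than that would join them and lower the value. The 10 runs were not compared under other links. The interval of the Fndc3b share overlapped that of each of the other runs, which is not a test of their differences, and none was run. The runs were ranked on the Sox6 list, so that order is a description.

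**Figure D5:**
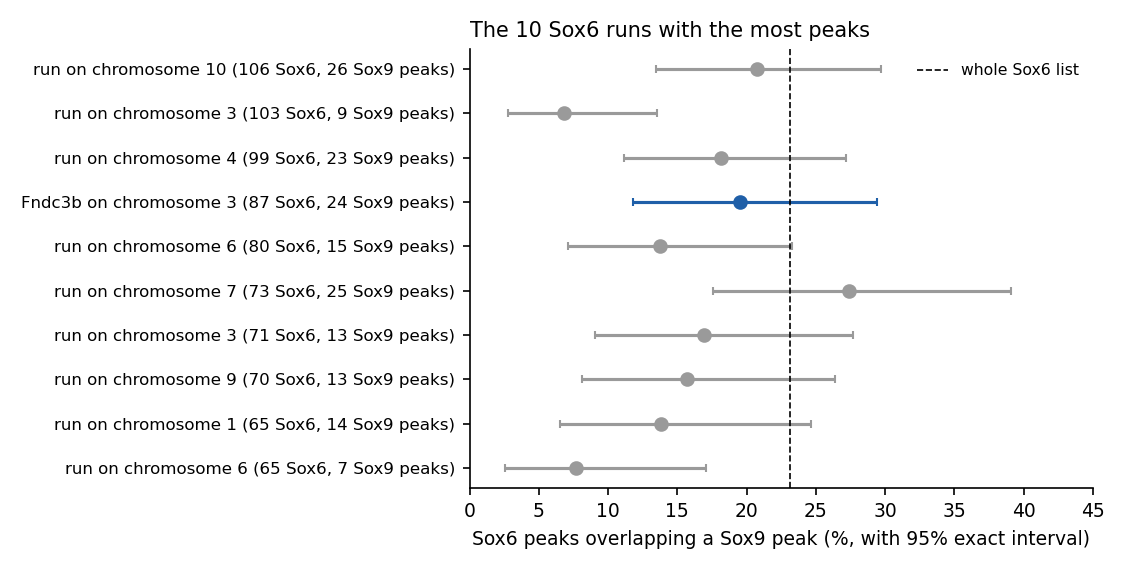
Percentage of Sox6 peaks that overlap a Sox9 peak in the 10 Sox6 runs with the most peaks (points with 95% exact binomial intervals), ordered by number of Sox6 peaks, with Fndc3b in blue and the share in the whole list, 23.1%, as a dashed line. The Fndc3b run stands at 19.5% with an interval from 11.8 to 29.4 that includes the line.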

How the data were processed

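Reads were mapped with Bowtie to mm9, per the submitters' processing notes, which give no version. For the peak caller, its threshold and any pooling of samples, nothing is given in the sources used here. As deposited by the authors, each list has 3 columns, the chromosome, start and end of called peaks, with no score, fold or count. The Sox9 list was taken as mm9 because the authors called it like the Sox6 list and its peaks coincide with Sox6 peaks.

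Starts were read as BED starts and are printed counted from 1. Peaks were shared when they overlapped by at least 1 bp, and a Sox9 peak formed a pair when the Sox6 peak with the closest centre also overlapped it. Over the whole lists 18302 Sox9 peaks were shared and 18297 formed a pair, since for the others the Sox6 peak with the closest centre was not one that overlapped. Runs linked centres up to 10000 bp apart. Shares have 95% Clopper-Pearson intervals and medians have order-statistic intervals. No test was run, since each factor has 1 list and the locus was chosen on one of them. The helpers were tested on simulated data with planted overlaps (Python 3.11.15, scipy 1.17.1). The gene span is the approximate one in the rule for the locus, and coordinates were not converted between builds. The members, the rule for naming peaks and the alternatives were chosen with earlier results of these data known. That rule took the shared pairs, the earliest, widest, closest and edge peaks, and the Sox9 peaks without overlap.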

Additional observations from a re-analysis of the deposited data

How the results depend on the processing

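Of 32 alternatives run on 9 values, 22 left the value within its interval, or a count within 1.5 times. The alternative shares below are for Fndc3b only. Whole-list shares were not computed under the same settings, so they cannot be set beside the 23.1% and 76.7% given above for an overlap of 1 bp. When peaks up to 1000 bp apart at their edges were joined, 47.5% of Sox6 and 100% of Sox9 peaks of Fndc3b counted as shared. With the Sox6 list shortened to the length of the Sox9 list these shares were 57.1% and 53.1%: it keeps the early entries, which are shared more often over the whole list, and leaves fewer Sox6 peaks for Sox9 peaks to meet. Requiring 50% of both peaks to overlap left 50.0% of the Sox9 peaks shared, while the Sox6 share of 13.3% stayed within its interval. The longest Sox6 run fell from 87 to 39 peaks with a link of 5000 bp and to 27 in the first 50% of the list, and it had 100 peaks with links of 12500 or 20000 bp. In that part of the list Fndc3b had 52 Sox6 peaks, a median of 3729 bp apart, and 16 Sox9 peaks. In 6 of the 22 the gene span replaced the window, which could change nothing because all peaks of the window lie in it. Merging overlapping peaks likewise could not change the number of Sox9 peaks or their share. No Sox9 peaks of the window overlap each other, and merged Sox6 peaks cover the same bases. Depth is unknown, so no peak could be weighed by its reads. No paired analysis was possible because each factor has 1 list.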
